A study of Mus musculus with 42 samples.

Results

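The comparison set 11 MC38 tumors of mice given aPD1 and aIL2RB, antibodies against PD-1 and against IL2RB, the beta chain shared by the receptors for IL-2 and IL-15, against 5 tumors of mice given isotype control antibodies. These 16 tumors, taken by their treatment label, are part of the 42 tumors of the series. All hosts were female CC75xB6 mice, the F1 hybrid of CC075/UncJ and C57BL/6J, injected under the skin at 8 to 12 weeks of age with 500000 cells of MC38, a colon carcinoma line of C57BL/6 origin. aIL2RB (clone TM-Beta 1, 200 ug per dose) was started right after engraftment and repeated at intervals of 3 days until the tumor reached 75 to 110 mm3. A single dose of 200 ug aPD1 (clone 29F.1A12) followed, and the tumor was collected 48 hours later. Isotype mice received isotype antibodies of matching dose in place of both, with clone 2A3 standing in for aPD1. The aPD1 tumors of the series (n = 6), whose hosts got an isotype antibody in place of aIL2RB, are given beside the comparison at several points. No tumor received aIL2RB without aPD1, so against isotype the contributions of aPD1 and aIL2RB cannot be told apart. All values are from 1 host genotype and 1 tumor line.

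IL2RB pairs with the common gamma chain to form the signaling part of the receptors for IL-2 and IL-15, and receptor engagement activates JAK1, JAK3 and STAT5. Natural killer (NK) cells and memory CD8 T cells depend on IL-15 for their maintenance, and IL-2 drives the expansion of effector T cells and supports regulatory T cells. STAT5 induces granzymes, perforin and the feedback inhibitor CISH in these lymphocytes.

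Whole tumors were profiled by poly(A) RNA-seq, and expression is given as CPM, the count of a gene relative to the size of its library after TMM scaling. A CPM value compares the same gene between tumors and was not corrected for gene length. Total counts ran from 20297643 to 22517200 in isotype tumors and from 17276984 to 23525678 in aPD1 + aIL2RB tumors. The 5 genes that hold rRNA reads took 1.72% to 8.55% of the counts in isotype and 3.44% to 12.0% in aPD1 + aIL2RB tumors. Summed over 14 skeletal muscle genes, expression was 1.46 to 50.2 CPM in isotype and 6.68 to 150.0 CPM in aPD1 + aIL2RB tumors, with medians of 2.28 and 50.5 CPM. All 14 had a positive log2 fold change, at a median of 1.48, and none was called. Of 14 genes listed for carcinoma cells and epithelium, 11 were tested, and their sum was 480 to 591 CPM in isotype and 466 to 596 CPM in aPD1 + aIL2RB tumors, mostly from Cd44, while the colon epithelial genes Krt20 and Vil1 did not pass the filter on low counts. Because these are bulk tumors, fewer cells of a type and less RNA per cell cannot be told apart. Each tumor is labelled as a biological replicate. The p-values of the main fit set a difference between groups against the spread between tumors within groups, estimated from all 42 tumors.

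Of 16932 genes tested, 287 were higher in aPD1 + aIL2RB tumors than in isotype tumors, which is 1.7% of the genes, and 255 were lower, which is 1.51%. A gene was called at an adjusted p below 0.05 in edgeR's quasi-likelihood test. The falls were larger than the rises. Lower genes had a median log2 fold change of -0.63, and 108 of them changed by 1 or more, whereas higher genes had a median of 0.49 and 49 of them changed by 1 or more. Over all genes tested the median was 0.011. In 50 genes (0.295%) each of the 11 tumors lay above all 5 isotype tumors and in 90 genes (0.532%) each lay below them, and 38 and 77 of these were called. Single tumors moved the counts of calls. The number of higher genes was 153 without isotype replicate 2, 173 without isotype replicate 3, 100 without isotype replicate 4, 136 without isotype replicate 5, 179 without aPD1 + aIL2RB replicate 1, 183 without aPD1 + aIL2RB replicate 5 and 506 without aPD1 + aIL2RB replicate 9. The number of lower genes was 130, 126 and 148 without isotype replicates 2, 4 and 5 and 454 without aPD1 + aIL2RB replicate 9. A total of 142 calls, 74 higher and 68 lower, were made in each of the 16 fits that left out 1 tumor, and genes that lost their call in such a fit are named as such below.

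**Figure D1:**
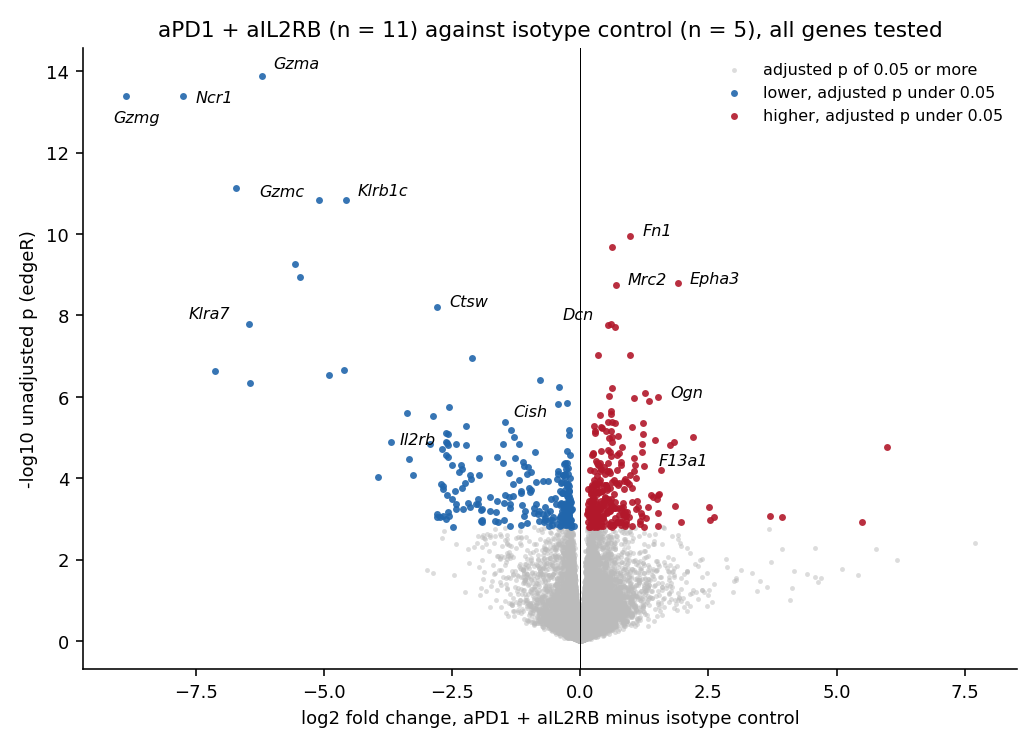
Log2 fold change of aPD1 + aIL2RB against isotype (horizontal axis) and minus log10 of the unadjusted p of edgeR (vertical axis) for the 16932 genes tested, with each point a gene and the 287 higher and 255 lower genes in color. Some granzyme and NK receptor genes, among them Gzmg and Ncr1, lie far to the left. On the right, Fn1 and Dpysl3, the rises with the smallest p, changed by 0.98 and 0.61 on the log2 scale.

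Of 18 tested genes of IL-2 and IL-15 receptor signaling, 2 fell and none rose, at a list median of -0.22. The genes that fell were the receptor chain itself and the feedback inhibitor of its pathway. Il2rb was at 17.7, 21.9, 17.99, 15.6 and 23.03 CPM in the isotype tumors and at 0.479 (lowest), 3.08 (median) and 11.3 (highest) CPM in the aPD1 + aIL2RB tumors. The groups did not overlap, and 18.9% of the isotype mean was left (log2 fold change -2.43 ± 0.49 SE, adjusted p = 0.00327). Cish, which encodes an inhibitor of cytokine receptor signaling induced by STAT5, was at 5.29, 5.48, 4.13, 1.94 and 3.04 CPM in isotype tumors and at 0.771, 1.38 and 2.46 CPM (lowest, median, highest) with aPD1 + aIL2RB. Of the 11 values, 2 reached past the lowest isotype tumor, replicate 4, and none reached the others (log2 fold change -1.46 ± 0.28 SE, adjusted p = 0.00165). Neither gene lost its call when 1 tumor was left out, with adjusted p-values of at most 0.0117 and 0.0113.

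The other receptor chains and kinases were not called. Il2rg, the common gamma chain, was at 46.4 to 60.1 CPM in isotype and at 22.5 to 55.7 CPM in aPD1 + aIL2RB tumors (log2 fold change -0.52 ± 0.22 SE, adjusted p = 0.192). Il2ra, the alpha chain of the high-affinity IL-2 receptor, changed by -0.85 ± 0.37 (log2 scale, SE, adjusted p = 0.207). The kinase gene Jak1 and the transcription factor gene Stat5b had log2 fold changes of 0.02 and 0.04, with adjusted p-values of 0.84 and 0.696.

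The promoter windows of 3 genes that fell are shown because the letters TTCNNNGAA, the core to which STAT factors including STAT5 bind, occur in them. The windows run from 250 bases before to 50 bases after the annotated start, are written 5′ to 3′ on the strand of the gene, and come from RefSeq (GRCm38.p6). Capitals mark each match, and the motif is its own reverse complement, so that both strands are searched at once. The window of Cish lies at chr9:107296409-107296708 on the plus strand and holds 2 matches that do not overlap. That of Gimap3, a small GTPase gene of lymphocytes, lies at chr6:48770802-48771101 on the minus strand, and that of Gzmb, which encodes the serine protease granzyme B, at chr14:56262285-56262584 on the minus strand, each with 1 match. The coordinates used below for the granzyme cluster place the start of Gzmb at 56262260. By that start the whole Gzmb window, with its match, lies upstream of the gene.
Cish: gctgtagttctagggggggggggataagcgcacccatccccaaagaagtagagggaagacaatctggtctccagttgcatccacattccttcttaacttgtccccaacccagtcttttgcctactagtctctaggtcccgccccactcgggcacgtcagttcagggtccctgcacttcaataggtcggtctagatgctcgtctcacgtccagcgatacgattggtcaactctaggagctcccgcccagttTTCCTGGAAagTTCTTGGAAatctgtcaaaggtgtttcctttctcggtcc
Gimap3: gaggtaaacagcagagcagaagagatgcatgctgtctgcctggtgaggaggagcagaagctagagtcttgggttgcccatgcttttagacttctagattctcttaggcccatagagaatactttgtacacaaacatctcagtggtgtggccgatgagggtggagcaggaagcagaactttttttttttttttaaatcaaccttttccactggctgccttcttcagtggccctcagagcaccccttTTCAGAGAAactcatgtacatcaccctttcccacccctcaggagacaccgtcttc
Gzmb: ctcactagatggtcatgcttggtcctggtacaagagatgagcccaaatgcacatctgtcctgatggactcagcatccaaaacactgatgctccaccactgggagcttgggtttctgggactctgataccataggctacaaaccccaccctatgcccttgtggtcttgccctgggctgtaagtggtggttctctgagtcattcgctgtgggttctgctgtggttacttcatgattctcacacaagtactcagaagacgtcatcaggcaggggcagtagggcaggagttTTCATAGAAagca
A match is a run of letters and not a measured binding site. Among all 32851 windows of this length, 8.30% held at least 1 match and 0.457% held 2 or more. Windows were found for 182 lower genes, of which 25 (13.7%) held a match and 4 held 2 or more, and for 216 higher genes, of which 15 (6.94%) held a match and 0 held 2 or more. Among genes that were not called, 921 of 11067 windows (8.32%) held a match. No test was made of these shares.

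Some genes of NK cell receptors fell to near 0. Of 28 tested genes of NK cell receptors and T-box factors, 12 fell, none rose and 16 were not called, with a list median of -1.94 against 0.011 over all genes. Leaving out 1 tumor at a time gave 8 to 13 lower genes, the fewest without isotype replicate 2. Ncr1, which encodes NKp46, a receptor largely restricted to NK cells and innate lymphoid cells, was at 0.85, 1.32, 1.51, 1.90 and 1.12 CPM in isotype tumors and at 0 in each of the 11 aPD1 + aIL2RB tumors. It had 146 counts over the isotype tumors and 0 over the others. Set against a floor of 3 counts over the group, which is 0.013 CPM, Ncr1 was at least 103-fold lower (adjusted p = 2.35e-10). In the aPD1 tumors it was at 1.66 ± 1.18 CPM (SD, n = 6).

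Klrb1c, which encodes the NK1.1 antigen, was at 2.83, 2.46, 2.92, 1.94 and 2.24 CPM in isotype tumors and at 0, 0.0596 and 0.296 CPM (lowest, median, highest) in aPD1 + aIL2RB tumors. Every one of the 11 was below every isotype tumor (log2 fold change -4.57 ± 0.50 SE, adjusted p = 4.05e-08). Klrd1, which encodes the CD94 partner of the NKG2 receptors, was at 5.15, 6.16, 3.48, 5.53 and 3.88 CPM against 0.0504, 0.809 and 1.97 CPM, again without overlap (log2 fold change -2.62 ± 0.52 SE, adjusted p = 0.00236). Klrc1, which encodes NKG2A, and Klri2, another C-type lectin receptor gene, had log2 fold changes of -2.68 and -2.87, with adjusted p-values of 0.014 and 0.00127. Klra7, a Ly49 receptor gene, had 59.5 counts over the isotype tumors and 0 over the others. The pseudogene Klra13-ps had the same total of 59.5 counts over the isotype tumors but not the same values in each (0.0472 CPM in isotype replicate 1, where Klra7 was at 0.755 CPM), and whether the same reads were counted in both of these close copies was not tested.

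Klrb1c, Klrd1, Klrc1, Klri2 and Klra7 lie within the NK gene complex, in which 35 genes at chr6:128778485-130386874 (GRCm38) were tested, 8 fell, 1 rose and the others, many of them between these 5, were not called. The other genes that fell were Klre1, Klra13-ps and Clec12a, an inhibitory receptor gene of myeloid cells. The ends of this stretch were set with the values known. The gene that rose was Clec1a, a C-type lectin gene of endothelium (log2 fold change 0.29, adjusted p = 0.0334), and its call was lost in 7 of the 16 fits without 1 tumor (adjusted p of up to 0.143). Klrk1, which encodes NKG2D and is also carried by CD8 T cells, was at 10.4 to 14.1 CPM in isotype and 1.98 to 12.3 CPM in aPD1 + aIL2RB tumors, and its log2 fold change of -1.17 ± 0.45 (SE) was not called (adjusted p = 0.145).

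Cytotoxic granule genes included the largest fitted fall of the comparison, that of Gzmg. Of 18 tested, 10 fell and none rose, with a list median of -2.36. Leaving out 1 tumor gave 7 to 11. Gzma, which encodes granzyme A, was at 3.02, 4.06, 6.80, 5.95 and 4.90 CPM in isotype tumors, and at 0 (lowest and median) and 0.569 CPM (highest) in aPD1 + aIL2RB tumors. The median aPD1 + aIL2RB tumor had no count of Gzma, and 1.203% of the isotype mean was left (log2 fold change -6.21 ± 0.54 SE, adjusted p = 2.23e-10). In aPD1 tumors Gzma was at 7.59 ± 3.51 CPM (SD, n = 6).

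The granzymes C to G are a group of close copies on chromosome 14 next to Gzmb. All 6 genes tested at chr14:56117626-56262260 (GRCm38), Gzmb included, fell. Gzmc was at 23.2, 14.9, 47.0, 44.99 and 19.01 CPM in isotype tumors and at 0.0815, 0.599 and 3.33 CPM in aPD1 + aIL2RB tumors (lowest, median, highest), without overlap (log2 fold change -5.10 ± 0.56 SE, adjusted p = 4.05e-08). Gzmg had 2946 counts over the 5 isotype tumors and 12 over the 11 aPD1 + aIL2RB tumors (log2 fold change -8.86 ± 0.80 SE, adjusted p = 2.35e-10). Reads of these copies may be split between them, and the estimated counts of Gzmd and Gzme were not whole in 12.5% of the 16 tumors. Their sum does not depend on that split. Gzmc to Gzmg together reached 38.9 (lowest), 82.8 (median) and 219.8 (highest) CPM in isotype tumors, 124 ± 79.3 CPM (mean ± SD, n = 5). In aPD1 + aIL2RB tumors the sum was 0.0815, 1.91 and 9.61 CPM, 2.70 ± 3.09 CPM (mean ± SD, n = 11).

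Ctsw, which encodes cathepsin W, a protease of NK cells and cytotoxic T cells, was at 4.58, 5.48, 5.44, 6.20 and 5.37 CPM in isotype tumors and at 0.382, 0.806 and 1.28 CPM in aPD1 + aIL2RB tumors. The tumors of each group lay close together and the groups did not overlap (log2 fold change -2.79 ± 0.38 SE, adjusted p = 7.92e-06). Against the aPD1 tumors, where Ctsw was at 9.47 ± 4.63 CPM (SD, n = 6), the log2 fold change was -3.60 ± 0.37 (SE, adjusted p = 4.96e-09). The genes of granzyme B and perforin fell less far than Gzma or Gzmc. Gzmb was at 0.745 to 12.4 CPM with 20.8% of the isotype mean left, and Prf1 was at 0.135 to 6.26 CPM with 17.97% left. Gzmb lost its call without isotype replicate 3, 4 or 5 or aPD1 + aIL2RB replicate 1 (adjusted p of up to 0.0795), and Prf1 without isotype replicate 3 or 4 (adjusted p of up to 0.073).

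T cell genes that fell did so to a smaller extent than Ncr1, Gzma and Gzmc. Not all NK genes fell that far, and Klrd1 and Klrc1 (log2 fold changes of -2.62 and -2.68) were close to Cd8b1 and Cd3g. Of 29 tested genes of the T cell receptor and T cell identity, 15 fell and none rose, with a list median of -1.85. The count ranged from 10 without isotype replicate 2 to 19 without aPD1 + aIL2RB replicate 3. Cd8b1, which encodes the beta chain of CD8, was at 4.34, 6.53, 5.95, 4.39 and 5.18 CPM in isotype tumors and at 0.0898, 0.756 and 3.40 CPM in aPD1 + aIL2RB tumors (log2 fold change -2.61 ± 0.53 SE, adjusted p = 0.00324). Cd3g, a chain of the CD3 complex, was at 4.86, 7.90, 5.09, 7.51 and 6.82 CPM against 0.106, 0.652 and 3.10 CPM (log2 fold change -2.58 ± 0.53 SE, adjusted p = 0.00337). In both genes the highest aPD1 + aIL2RB tumor was still below the lowest isotype tumor.

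Skap1, an adaptor of T cell receptor signaling, was left at 12.9% of its isotype mean (log2 fold change -2.94 ± 0.60 SE, adjusted p = 0.00329). Ubash3a, which encodes a regulator of T cell receptor signaling, changed by -2.59 ± 0.65 (log2 scale, SE, adjusted p = 0.019). It lost its call without isotype replicate 5 (adjusted p = 0.0521). The residual T cell signal was not spread evenly over the 11 tumors. aPD1 + aIL2RB replicate 3 was the highest of the group in 14 of the 15 T cell genes that fell, and replicate 9 in the other. Replicate 3 was also the highest in 7 of the 12 NK genes and 4 of the 10 granule genes that fell. Summed over the T cell list, expression was 119 to 179 CPM in isotype tumors and 36.9 to 127 CPM in aPD1 + aIL2RB tumors, with medians of 165 and 60.7 CPM.

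**Figure D2:**
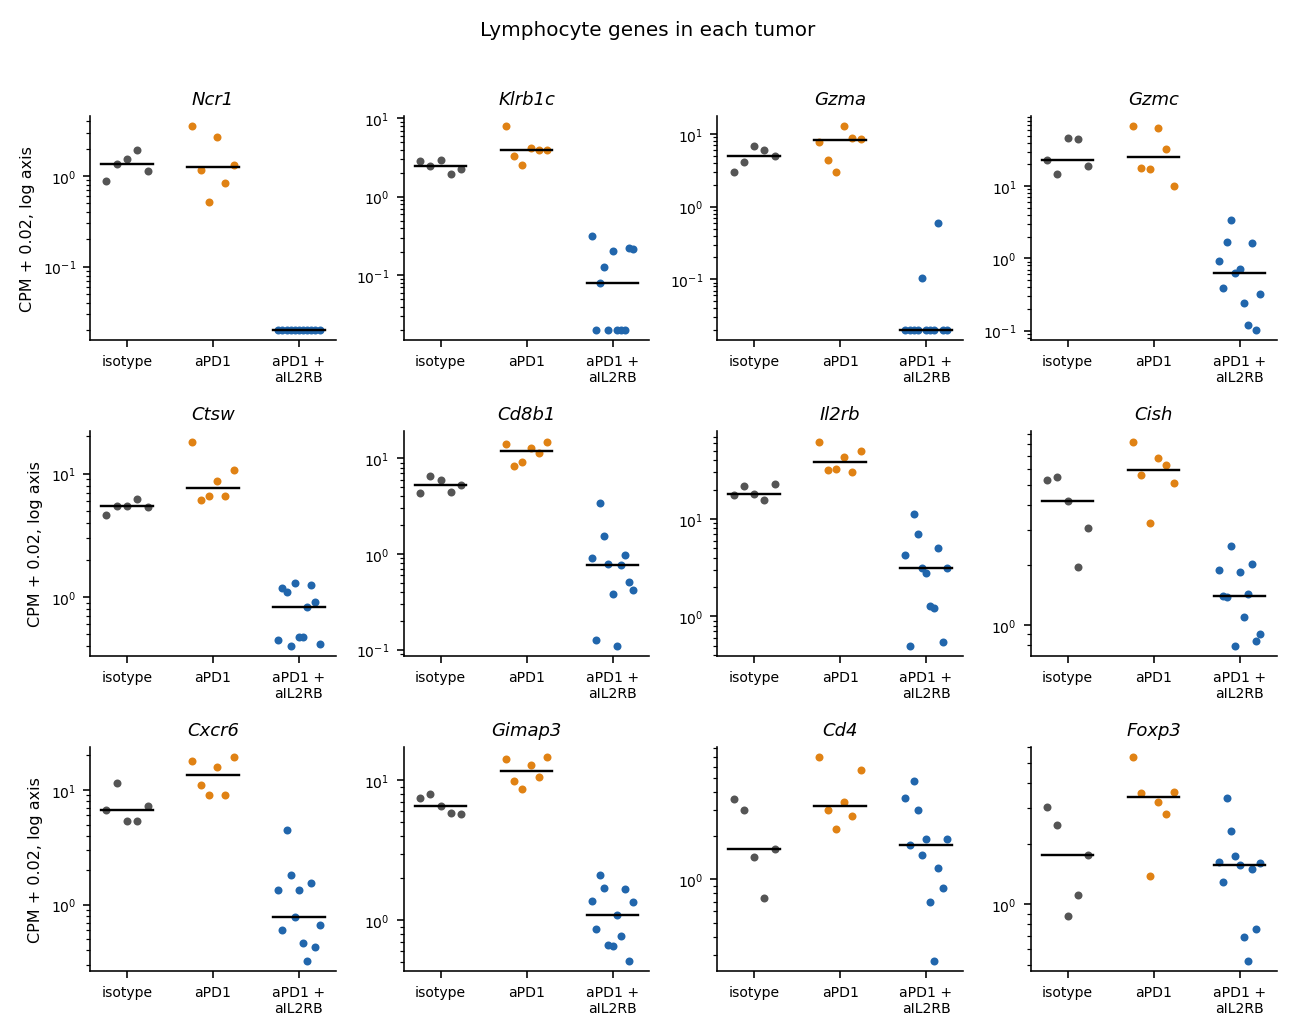
CPM plus 0.02 per tumor on log axes for 12 genes of NK cells, granules, T cells and the receptor pathway in isotype (n = 5), aPD1 (n = 6) and aPD1 + aIL2RB (n = 11) tumors, with a bar at the median of each group. Ncr1 is at 0 in all 11 aPD1 + aIL2RB tumors, whereas Cd4 and Foxp3 overlap between the groups.

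Cd4 and Foxp3, used as marks of helper and regulatory T cells, were not called. Cd4, the coreceptor of helper and regulatory T cells that macrophages may also carry, was at 3.59, 2.97, 1.41, 0.717 and 1.59 CPM in isotype tumors and at 0.252, 1.70 and 4.71 CPM in aPD1 + aIL2RB tumors (log2 fold change -0.10 ± 0.47 SE, adjusted p = 0.937). Foxp3, the defining factor of regulatory T cells, was at 3.02, 2.46, 0.857, 1.10 and 1.73 CPM against 0.504, 1.55 and 3.34 CPM (log2 fold change -0.28 ± 0.40 SE, adjusted p = 0.765). In both genes the 11 values ran from below to above the isotype range. Other genes of these cells were lower on average. Icos, on the T cell list, was called lower with 26.8% of its isotype mean left (adjusted p = 0.0294 in edgeR). It lost its call in at least 1 fit without 1 tumor. Cd28 was left at 53.45% and Ctla4 at 63.5%, and neither was called (adjusted p = 0.343 and 0.537). Of 13 tested genes listed for regulatory T cells, none was called lower and 1 was called higher. Their median was -0.54, and 12 had a negative log2 fold change. The gene that rose was Lrrc32, which encodes GARP, a TGF-beta docking protein also found on endothelium, and it lost its call without any one of isotype replicates 2 to 5 or aPD1 + aIL2RB replicate 1, with adjusted p-values of up to 0.107.

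Because Cd8a fell and Cd4 and Foxp3 were not called, their ratios within tumors are described here. The genes were chosen for this pattern, so no test is read from them. The log2 ratio of Cd8a to Cd4 was 3.03 ± 0.79 in isotype tumors (mean ± SD, n = 5) and 0.36 ± 1.03 in aPD1 + aIL2RB tumors (n = 11). The difference was -2.67, and 11 of 11 tumors were below the lowest isotype tumor. The log2 ratio of Cd8a to Foxp3 was 3.13 ± 0.46 and 0.51 ± 0.81 in the same groups, a difference of -2.62, again with 11 of 11 below. Without any one tumor the differences were -2.88 to -2.39 and -2.79 to -2.39.

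**Figure D3:**
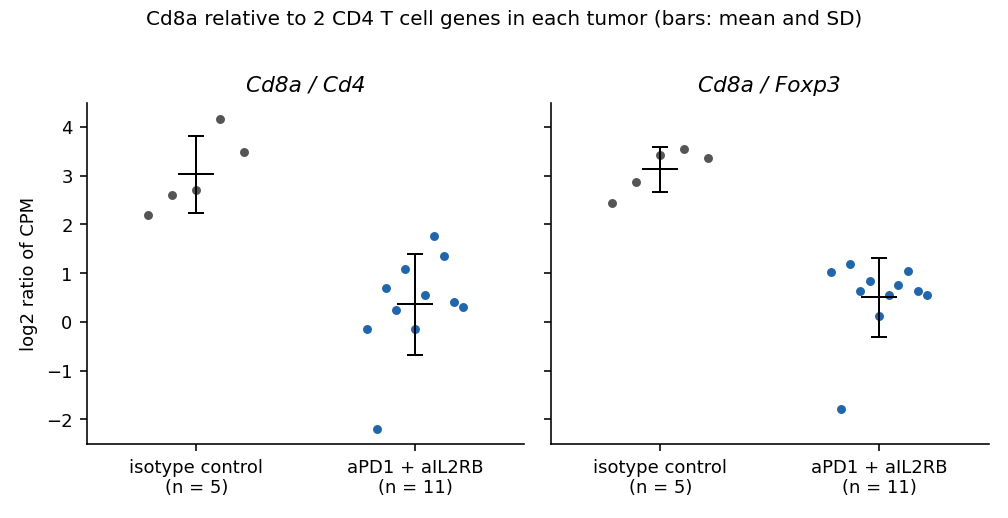
Log2 ratio of the CPM of Cd8a to that of Cd4 and of Foxp3 (vertical axes) in each isotype (n = 5) and aPD1 + aIL2RB (n = 11) tumor, with the group mean and SD. All 11 aPD1 + aIL2RB tumors lie below all 5 isotype tumors in both ratios.

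GTPases of the GIMAP family, which support survival of lymphocytes, fell in part. Of 8 tested, 3 fell and none rose, and 3 to 5 fell when 1 tumor was left out. Gimap3, whose promoter window is shown above, was at 7.46, 7.94, 6.55, 5.82 and 5.70 CPM in isotype tumors and at 0.489, 1.08 and 2.09 CPM in aPD1 + aIL2RB tumors. The groups lay far apart (log2 fold change -2.56 ± 0.46 SE, adjusted p = 0.000885). Gimap7 fell by 2.51 and Gimap1 by 0.86 on the log2 scale, with adjusted p-values of 0.00689 and 0.0124. Gimap4 and Gimap6, which endothelium also expresses, had log2 fold changes of -0.42 and -0.19 and were not called (adjusted p = 0.0812 and 0.501). The members are close copies in 1 cluster, so counts may be shared between them.

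Among 15 checkpoint and exhaustion genes, 3 fell and none rose. Tnfrsf9, which encodes the costimulatory receptor 4-1BB of activated T and NK cells, was at 11.7, 13.6, 13.6, 13.3 and 9.43 CPM in isotype tumors and at 2.83, 4.40 and 8.70 CPM in aPD1 + aIL2RB tumors, with no overlap (log2 fold change -1.35 ± 0.26 SE, adjusted p = 0.00209). Pdcd1, the gene of PD-1 itself, was at 7.46, 8.76, 3.18, 6.63 and 7.71 CPM against 0.809, 2.37 and 6.02 CPM, and isotype replicate 3 fell inside the aPD1 + aIL2RB range. Its log2 fold change was -1.46 ± 0.37 (SE, adjusted p = 0.0194), and the call was lost without isotype replicate 2 or 5 (adjusted p of up to 0.065). Tigit, an inhibitory receptor gene, fell by 1.66 (adjusted p = 0.0411), a call lost in most of the fits without 1 tumor (adjusted p of up to 0.12). The count of 3 became 1 without isotype replicate 2 and 6 without aPD1 + aIL2RB replicate 9.

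Cd274, which encodes the PD-1 ligand PD-L1, was at 59.2, 75.0, 55.8, 49.8 and 59.3 CPM in isotype tumors and at 33.1, 50.2 and 155 CPM in aPD1 + aIL2RB tumors. The isotype values lay inside the wider range of the 11 tumors (log2 fold change 0.08 ± 0.29 SE, adjusted p = 0.922), and the sign turned to -0.15 without aPD1 + aIL2RB replicate 9. In the aPD1 tumors Cd274 was at 126 ± 32.3 CPM (SD, n = 6).

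Of 7 tested effector cytokine genes, 3 fell and none rose. Ltb, which encodes lymphotoxin beta, was at 2.88, 2.28, 2.37, 2.70 and 2.38 CPM in isotype tumors and at 0, 0.514 and 1.19 CPM in aPD1 + aIL2RB tumors (log2 fold change -2.24 ± 0.53 SE, adjusted p = 0.0127). The groups did not overlap. Fasl, the gene of the death ligand, and Xcl1, a chemokine gene of NK and CD8 T cells, fell by 2.58 and 2.02 with adjusted p-values of 0.031 and 0.0253. Their calls were lost without isotype replicate 2 among others (adjusted p of up to 0.0728 and 0.0964), and without that tumor 1 of the 7 cytokine genes was called. Tnf and Tnfsf10 were not called, at log2 fold changes of -0.45 and -0.13 (adjusted p = 0.391 and 0.852).

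Chemokine genes did not move as one. Of 8 tested genes of the CXCR3 and CXCR6 axis, 1 fell and 1 rose. Cxcr6, a receptor gene of tissue-resident T and NK cells, was at 6.66, 11.5, 5.39, 5.40 and 7.24 CPM in isotype tumors and at 0.302, 0.771 and 4.47 CPM in aPD1 + aIL2RB tumors (log2 fold change -2.58 ± 0.51 SE, adjusted p = 0.00242). Ccl5, a chemokine that T and NK cells and also macrophages produce, went the other way, at 46.3, 54.5, 23.8, 35.1 and 27.5 CPM against 44.3, 55.5 and 72.8 CPM. Its rise of 0.60 ± 0.15 (log2 fold change, SE, adjusted p = 0.0221) was lost without isotype replicate 3, 4 or 5 (adjusted p of up to 0.0974). Cxcl13, the chemokine that attracts B cells, was at 62.9, 106, 10.1, 19.9 and 18.9 CPM against 1.19, 5.85 and 25.04 CPM. Isotype replicates 1 and 2 stood above the other isotype tumors, and the fall of 2.61 ± 0.55 (SE, adjusted p = 0.00487) was lost without replicate 2 (adjusted p = 0.0654). Cxcl9 and Cxcl10 were not called, and neither was any of 13 tested CC chemokines and receptors.

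Interferon-regulated genes gave few calls. Of 19 tested interferon-gamma inducible GTPases, none was called at a median of -0.19, with Gbp2 at a log2 fold change of -0.08 (adjusted p = 0.906). Of 20 MHC class I presentation genes, 3 fell and none rose, at a median of -0.30. These were H2-Q7 (log2 fold change -0.68), the immunoproteasome gene Psmb8 (-0.34) and the proteasome activator gene Psme2 (-0.23). All 3 calls were lost without isotype replicate 2 or without isotype replicate 4, and that of H2-Q7 in 12 of the 16 fits without 1 tumor (adjusted p of up to 0.119, 0.0793 and 0.108), and the count was 0 without replicate 2 and 7 without aPD1 + aIL2RB replicate 9. H2-K1, a classical class I gene, was at 1496 to 2015 CPM in isotype and 937 to 1661 CPM in aPD1 + aIL2RB tumors and missed the threshold (log2 fold change -0.44 ± 0.13 SE, adjusted p = 0.0522). It was called lower without aPD1 + aIL2RB replicate 3, 9 or 11. None of 12 MHC class II genes was called, at a median of -0.64. Cd74, the class II invariant chain, was at 641 to 1368 CPM against 165 to 679 CPM (log2 fold change -1.19 ± 0.47 SE, adjusted p = 0.156). Of 24 antiviral interferon-stimulated genes, the RNA sensor gene Ddx58 rose (0.29, adjusted p = 0.0481) and none fell, at a median of 0.37. The call of Ddx58 was lost in most fits without 1 tumor (adjusted p of up to 0.195).

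Matrix genes were among the rises with the smallest p. Of 27 tested genes of collagens and fibroblast matrix, 6 rose (Fn1, Dcn, Ogn, Mmp2, Col3a1 and Vcan) and none fell, at a list median of 0.20. The count was 4 without isotype replicate 4 and 8 without isotype replicate 1. Fn1, which encodes fibronectin, was at 1466, 1149.5, 1525.5, 892 and 1085 CPM in isotype tumors and at 1787, 2474 and 2976.5 CPM (lowest, median, highest) in aPD1 + aIL2RB tumors. All 11 lay above all 5 (log2 fold change 0.98 ± 0.12 SE, adjusted p = 2.65e-07). Dcn, which encodes the collagen-binding proteoglycan decorin, was at 629, 658, 523, 549.7 and 468 CPM against 724, 877 and 1009.9 CPM, without overlap (log2 fold change 0.60 ± 0.09 SE, adjusted p = 1.83e-05). Ogn, which encodes the proteoglycan osteoglycin, was at 7.51, 6.66, 2.67, 1.94 and 2.62 CPM against 5.48, 12.95 and 20.2 CPM (log2 fold change 1.52 ± 0.27 SE, adjusted p = 0.000588). Isotype replicates 1 and 2 overlapped the lower end of the 11 tumors.

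Of the abundant fibrillar collagens, Col3a1 was at 3433, 2694, 1300.1, 1269 and 1352 CPM in isotype tumors and at 2004, 3359.5 and 4342 CPM in aPD1 + aIL2RB tumors. The isotype tumors split, with replicates 1 and 2 inside the aPD1 + aIL2RB range and replicates 3 to 5 below it. This is also the division of the isotype tumors into the 2 sets described further below. The rise of Col3a1 (log2 fold change 0.80 ± 0.18 SE, adjusted p = 0.00695) was lost without isotype replicate 4 (adjusted p = 0.0508). Col1a1 and Col1a2, the chains of type I collagen, whose values are shown although outside the naming rule, had log2 fold changes of 0.17 and -0.05 and were not called (adjusted p = 0.768 and 0.935), and the difference between these genes and Col3a1 was not tested. Vcan, the gene of the proteoglycan versican, rose by 0.66 (adjusted p = 0.0186), lost without isotype replicate 2 or 4 (adjusted p of up to 0.108).

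Of 17 tested genes of fibroblast identity, 5 rose (Mrc2, Apod, Pdgfrb, Islr and Dpt) and none fell, at a median of 0.28, with 3 called without isotype replicate 3 and 6 without aPD1 + aIL2RB replicate 9. Mrc2, which encodes Endo180, an endocytic collagen receptor, was at 33.9, 33.2, 27.2, 29.7 and 33.3 CPM in isotype tumors and at 44.4, 52.6 and 59.1 CPM in aPD1 + aIL2RB tumors. The groups were narrow and separate (log2 fold change 0.69 ± 0.09 SE, adjusted p = 2.46e-06). Apod, the gene of the lipid carrier apolipoprotein D, was at 2.36, 3.19, 1.97, 2.07 and 1.40 CPM against 4.20, 4.65 and 6.87 CPM (log2 fold change 1.23 ± 0.24 SE, adjusted p = 0.00241). The groups did not overlap. The calls of Islr (1.02) and Dpt (0.85) were lost without isotype replicate 3, 4 or 5, among others for Dpt (adjusted p of up to 0.104 and 0.164). None of 11 genes of pericytes and smooth muscle was called.

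Markers of other nonimmune tissue are given beside these rises. The skeletal muscle list had a median log2 fold change of 1.48 and median sums of 2.28 CPM in isotype and 50.5 CPM in aPD1 + aIL2RB tumors. The 6 tested keratinocyte genes had a list median of 1.198 with sums of 3.59 to 5.90 CPM in isotype and 3.35 to 24.8 CPM in aPD1 + aIL2RB tumors, and the 10 tested adipocyte genes had a median of -0.63 with sums of 20.3 to 81.4 CPM and 22.9 to 88.6 CPM. No gene of these lists was called. Their part in the results for matrix and fibroblast genes was not tested.

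**Figure D4:**
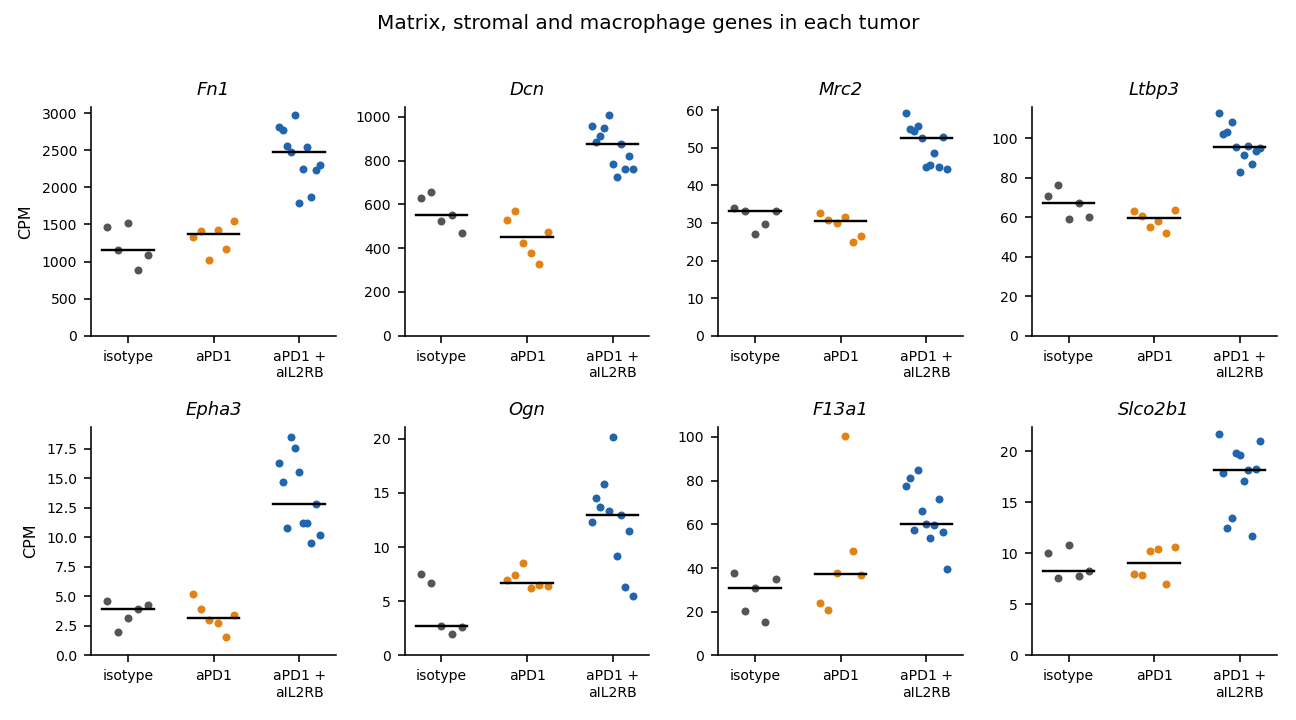
CPM per tumor on linear axes from 0 for 8 matrix, fibroblast, TGF-beta pathway, Eph receptor, transporter and macrophage genes that rose, in isotype (n = 5), aPD1 (n = 6) and aPD1 + aIL2RB (n = 11) tumors, with a bar at the group median. Fn1, Dcn, Mrc2, Ltbp3 and Epha3 are higher in all 11 aPD1 + aIL2RB tumors than in all 5 isotype tumors.

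The rises extended to growth factor and guidance genes. Of 22 TGF-beta ligands, receptors and targets tested, 5 rose and none fell, at a median of 0.11, with 1 called without isotype replicate 3 and 6 without aPD1 + aIL2RB replicate 7. Ltbp3, which encodes a protein that holds latent TGF-beta in the matrix, was at 70.8, 76.4, 59.1, 67.3 and 60.2 CPM in isotype tumors and at 82.7, 95.6 and 113 CPM in aPD1 + aIL2RB tumors. No tumor overlapped (log2 fold change 0.54 ± 0.08 SE, adjusted p = 1.83e-05). Tgfb3 and Inhbb, ligand genes of the family, rose by 0.73 and 0.55, and Smad3, a signal transducer gene, by 0.29. Each of these 3 calls was lost without isotype replicate 3, 4 or 5, among others for Inhbb and Smad3 (adjusted p of up to 0.113, 0.0811 and 0.12).

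Of 18 Eph receptors and ephrins tested, 3 rose and none fell. Epha3, an Eph receptor gene of mesenchymal cells, was at 4.58, 2.01, 3.18, 3.92 and 4.30 CPM in isotype tumors and at 9.48, 12.8 and 18.5 CPM in aPD1 + aIL2RB tumors. The lowest of the 11 was above the highest isotype tumor (log2 fold change 1.90 ± 0.25 SE, adjusted p = 2.46e-06). Epha7 and Ephb2 rose by 0.65 and 0.29, and their calls were lost in most fits without 1 tumor (adjusted p of up to 0.174 and 0.202). Without aPD1 + aIL2RB replicate 1 the count for the list was 1, and without replicate 9 it was 5.

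Other genes with small p or large rises came from mixed functions. Dpysl3, which encodes a cytoskeletal protein of migrating cells, was at 83.2, 78.0, 87.6, 77.4 and 80.2 CPM in isotype tumors and at 113, 122 and 142 CPM in aPD1 + aIL2RB tumors (log2 fold change 0.61 ± 0.07 SE, adjusted p = 4.35e-07). The isotype tumors were nearly level and all lay below the 11. Plcb1, a phospholipase C gene, was at 12.7, 11.3, 9.42, 9.62 and 8.22 CPM against 13.7, 16.3 and 19.4 CPM, without overlap (log2 fold change 0.68 ± 0.10 SE, adjusted p = 1.89e-05). Fstl1, which encodes a secreted follistatin-like glycoprotein, was at 269, 267, 244, 227 and 236 CPM against 273, 328 and 348 CPM (log2 fold change 0.36 ± 0.06 SE, adjusted p = 8.58e-05). Eya1, a developmental transcription coactivator gene, Acpp, a phosphatase gene, and Lrrc17, which encodes a secreted leucine-rich repeat protein, rose by 1.27, 1.34 and 1.46 with adjusted p-values of 0.000486, 0.000659 and 0.003. Bmp3, a gene of the BMP family, rose by 1.57 (adjusted p = 0.00841). Ptn, Tenm2 and Reps2 rose by 1.496, 1.41 and 1.38, with calls that were lost without isotype replicate 1 or 2, 2 or 3, and 2 or 4.

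In endothelium, 3 of 18 tested genes rose and none fell, at a median of 0.37. Cdh5, the gene of VE-cadherin, was at 57.5, 53.0, 54.0, 40.9 and 60.02 CPM in isotype tumors and at 59.2, 65.1 and 84.7 CPM in aPD1 + aIL2RB tumors (log2 fold change 0.37 ± 0.08 SE, adjusted p = 0.00695). Only isotype replicate 5 overlapped the 11. Without isotype replicate 4 the adjusted p of Cdh5 was 0.0656, and none of the 18 genes was called. The calls of the VEGF receptor genes Kdr (0.40) and Flt1 (0.34) were lost in most fits or in several (adjusted p of up to 0.199 and 0.169).

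Called macrophage genes were few on the identity list and more on the list of alternatively activated and resident macrophages. Of 19 genes of pan-macrophage identity, 1 fell and none rose. Csf1r, the defining receptor gene of the lineage, was at 199.5 to 249 CPM in isotype and 230.5 to 285 CPM in aPD1 + aIL2RB tumors (log2 fold change 0.11 ± 0.09 SE, adjusted p = 0.537). The gene that fell, Il34, is a ligand of that receptor (-0.29, adjusted p = 0.0261), and its call was lost without isotype replicate 2 or 4 (adjusted p of up to 0.107). Of 19 genes of alternatively activated and resident macrophages, 4 rose (F13a1, Cd163, Gas6 and Folr2) and 1 fell, at a median of 0.51. F13a1, which encodes the A chain of coagulation factor XIII, was at 37.6, 20.4, 30.7, 15.3 and 34.98 CPM in isotype tumors and at 39.7, 60.3 and 85.0 CPM in aPD1 + aIL2RB tumors, without overlap (log2 fold change 1.22 ± 0.25 SE, adjusted p = 0.00327). Cd163, the hemoglobin scavenger receptor gene, and Gas6, which encodes the ligand of the TAM receptors, rose by 1.16 and 0.88. Cd163 lost its call in 9 of the 16 fits without 1 tumor, among them those without isotype replicate 2, 3 or 4 (adjusted p of up to 0.174). Gas6 lost it without isotype replicate 4 (adjusted p = 0.0683). The call of Folr2, a folate receptor gene of resident macrophages, was lost in 6 of the fits, among them those without isotype replicate 2, 3 or 4 (adjusted p of up to 0.105). Without isotype replicate 4, 1 gene of the list was called higher.

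Slco2b1, an organic anion transporter gene, was at 10.0, 7.62, 10.8, 7.81 and 8.27 CPM in isotype tumors and at 11.7, 18.1 and 21.7 CPM in aPD1 + aIL2RB tumors (log2 fold change 0.97 ± 0.15 SE, adjusted p = 8.58e-05). All 11 were above the isotype tumors. Fcrls, a gene of resident macrophages and microglia, rose by 1.51 (adjusted p = 0.0189), lost without isotype replicate 2, 4 or 5 (adjusted p of up to 0.0871). Retnla, a marker of alternative activation, fell by 2.68 (adjusted p = 0.0153) and rested on isotype replicate 2, which was at 4.84 CPM where the other isotype tumors were at 0.234 to 1.18 CPM. Without that tumor the adjusted p was 0.305. Lpl, which encodes lipoprotein lipase and stands on the list of lipid-handling macrophages, was at 11.1, 20.9, 17.2, 13.2 and 22.05 CPM against 3.71, 7.29 and 16.4 CPM (log2 fold change -1.03 ± 0.23 SE, adjusted p = 0.00736).

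Over all tumors, no gene was called among 21 inflammatory cytokine and macrophage activation genes, 9 neutrophil genes, 12 genes of conventional type 1 dendritic cells, 10 of mature dendritic cells, 7 of mast cells, basophils and eosinophils, 14 of leukocyte adhesion and 20 of glycolysis and hypoxia. Among 13 genes of B and plasma cells the immunoglobulin genes Igkc and Ighg2c fell (log2 fold changes -2.44 and -2.68). The call of Igkc was lost without isotype replicate 2 (adjusted p = 0.137), which had the highest Igkc of the 5, and that of Ighg2c in 11 of the 16 fits without 1 tumor (adjusted p of up to 0.146). Without isotype replicate 2 the count was 0. Among 17 complement genes Cd55, an inhibitor of complement on the cell surface, fell by 1.31 (adjusted p = 0.0197), lost without isotype replicate 3 or 4 (adjusted p of up to 0.14).

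Of 28 tested genes of cell cycle and mitosis, 7 fell, none rose and 21 were not called, at a median of -0.16, and the count ranged from 1 without isotype replicate 5 to 12 without aPD1 + aIL2RB replicate 7. Birc5, which encodes the mitotic protein survivin, was at 96.2, 100.5, 106, 112 and 110.0 CPM in isotype tumors and at 76.4, 86.9 and 104 CPM in aPD1 + aIL2RB tumors (log2 fold change -0.26 ± 0.05 SE, adjusted p = 0.00425). Its call held without any one tumor. Those of Ccnd1, Mcm3 and Pcna were lost without isotype replicate 5, among others for Ccnd1 and Pcna (adjusted p of up to 0.111, 0.0539 and 0.172). E2f8, a cell cycle repressor gene, was at 97.4, 102, 134, 119 and 121 CPM against 75.0, 86.8 and 94.3 CPM, without overlap (log2 fold change -0.41 ± 0.07 SE, adjusted p = 0.000375). Msh6, a mismatch repair gene, fell by 0.22 (adjusted p = 0.00209).

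Of 24 genes of cholesterol and fatty acid synthesis, 9 fell and none rose, at a median of -0.26. Msmo1, a sterol oxidase gene of the pathway, was at 153, 153, 132, 130.2 and 128 CPM in isotype tumors and at 82.9, 107 and 123 CPM in aPD1 + aIL2RB tumors (log2 fold change -0.43 ± 0.10 SE, adjusted p = 0.00853). The groups did not overlap. Idi1, Fdps and Cyp51 fell by 0.47, 0.45 and 0.38, and all 3 calls were lost without isotype replicate 2 (adjusted p of up to 0.0911, 0.0548 and 0.0788), which left 2 of the 9. In the aPD1 tumors Msmo1 was at 107 ± 24.1 CPM (SD, n = 6), and aPD1 + aIL2RB differed from aPD1 by -0.05 on the log2 scale (adjusted p = 0.758).

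Atg9b, an autophagy gene, was at 14.02, 15.2, 17.2, 14.6 and 12.8 CPM in isotype tumors and at 7.15, 8.41 and 10.9 CPM in aPD1 + aIL2RB tumors (log2 fold change -0.78 ± 0.13 SE, adjusted p = 0.000269). The groups did not overlap. Cdh1, the gene of E-cadherin, which dendritic and other cells may carry beside epithelium, was the 1 gene called on the carcinoma list. It was at 5.95, 6.16, 7.51, 6.25 and 5.84 CPM against 1.49, 2.24 and 5.88 CPM, where the highest of the 11 reached just past the lowest isotype tumor (log2 fold change -1.26 ± 0.27 SE, adjusted p = 0.0054).

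**Figure D5:**
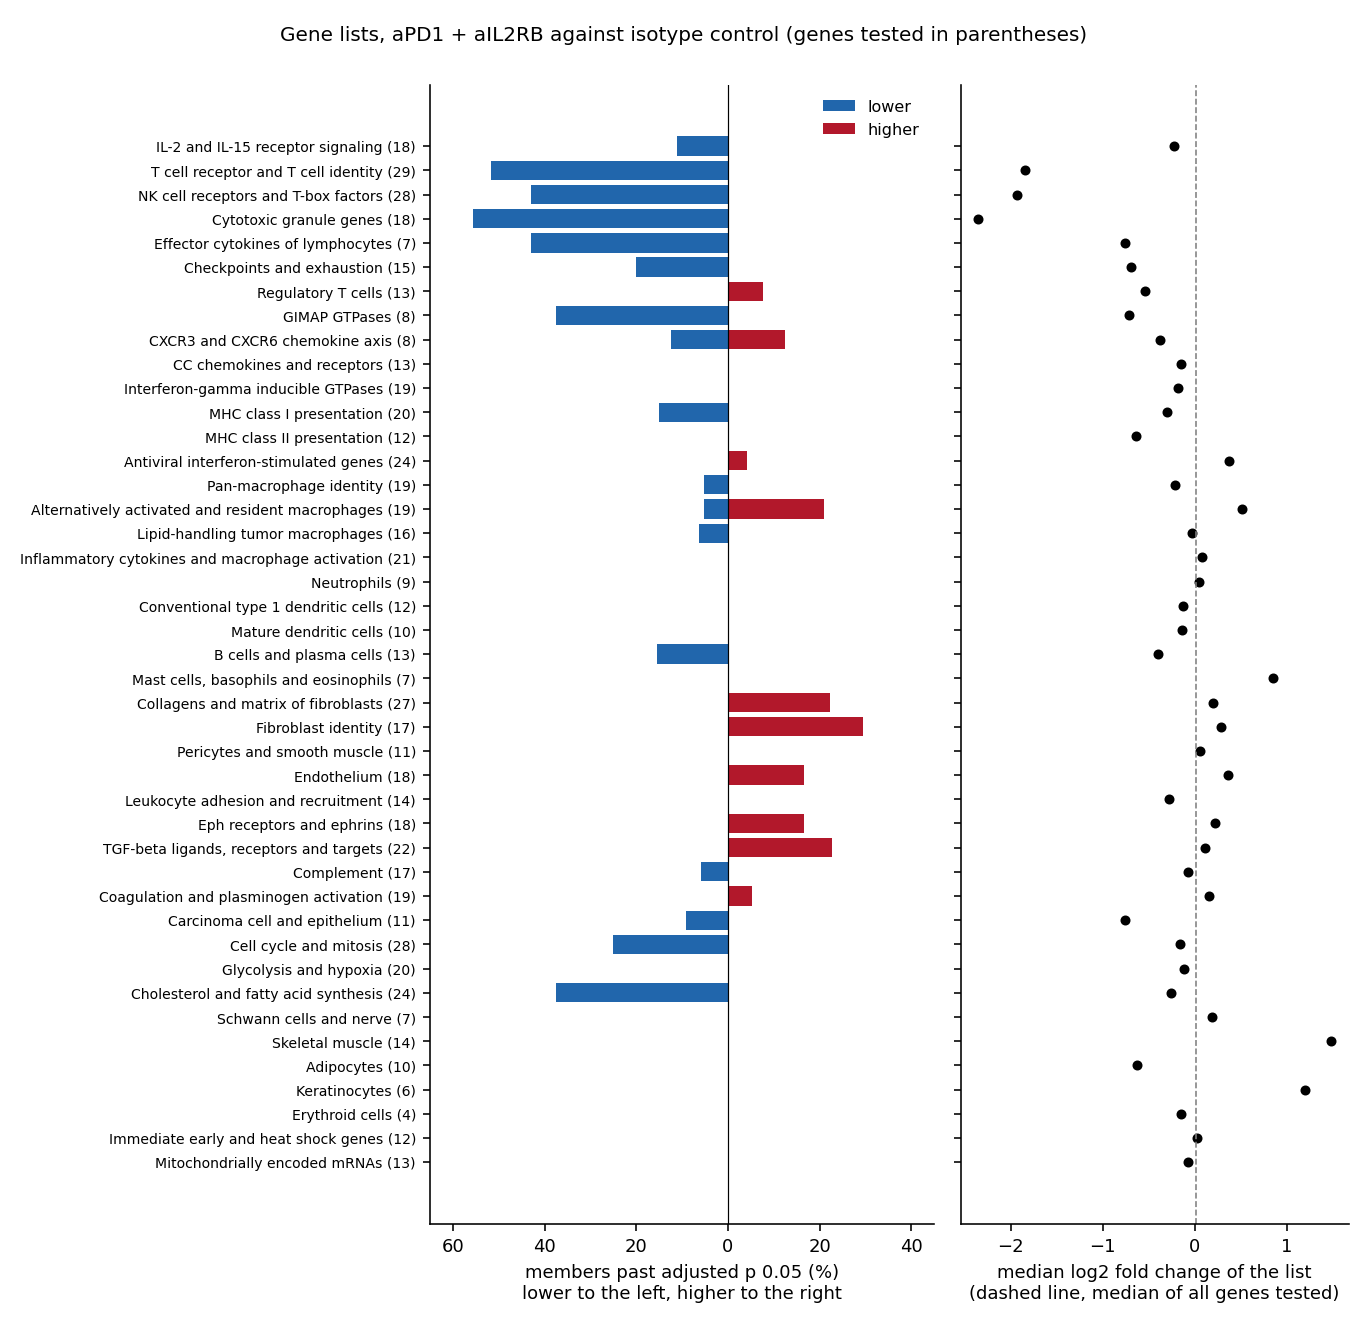
Share in percent of the tested genes of each list that were called lower (bars to the left) or higher (bars to the right), and the median log2 fold change of the list (points, with a dashed line at the median of all genes), aPD1 + aIL2RB against isotype. Lists of T cell, NK cell and granule genes hold 15, 12 and 10 lower genes and no higher gene, and the matrix, fibroblast and TGF-beta lists hold 6, 5 and 5 higher genes and no lower gene.

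Between the aPD1 + aIL2RB and the aPD1 tumors, 4647 of 16932 genes (27.4%) were called in either direction. The isotype and aPD1 comparisons share the 11 aPD1 + aIL2RB tumors and were not set against each other by a test. The log2 fold change of Klrb1c was -4.57 against isotype and -5.37 against aPD1, and that of Il2rb was -2.43 and -3.55. For the genes that rose, that of Fn1 was 0.98 against isotype and 0.87 against aPD1, that of Dcn was 0.60 and 0.93, and that of Epha3 was 1.90 and 2.02. Some genes were also called between aPD1 and isotype tumors. Apod was at 6.02 ± 2.28 CPM in aPD1 tumors (SD, n = 6), higher than isotype by 1.45 on the log2 scale (adjusted p = 0.000877), and aPD1 + aIL2RB differed from aPD1 by -0.22 (adjusted p = 0.476). Gas6 was at 19.8 ± 6.50 CPM in aPD1 tumors, higher than isotype by 1.04 (adjusted p = 0.0037), and aPD1 + aIL2RB differed from aPD1 by -0.16 (adjusted p = 0.561).

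Tumors fall into 2 sets along their replicate numbers, as found in earlier work on these counts, with isotype replicates 1 and 2 and aPD1 + aIL2RB replicates 1 to 6 in the first and the rest in the second. The labels do not name a batch. Isotype replicates 1 and 2 were the highest isotype tumors in Col3a1, Ogn, Cxcl13, Ccl5, Cd4 and Foxp3, genes picked here from their printed values. The main fit has no term for the set, and with such a term 540 of its 542 calls were shared. In 1 fit of all 42 tumors with a level for each group in each set, 63 genes (0.372%) were called in each of them, all in the same direction, 22 higher and 41 lower. Of 666 genes called in the first set by that fit, 502 (75.4%) had the same sign in the second, and of 208 called in the second set, 189 (90.9%) had the same sign in the first, beside 57.2% of all genes tested. The change itself differed between the sets in 4 genes (0.0236%), and 1882 had an unadjusted p below 0.05 in that test. Without isotype replicate 4 the number was 41, and without isotype replicate 2, 3 or 5 it was 0 (956, 1317 and 1402 at an unadjusted p below 0.05 in edgeR).

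Groups of genes were called unevenly in the sets by the same fit. Lower genes in the first and second set numbered 15 and 0 on the cholesterol and fatty acid list, 11 and 0 on the MHC class I list, 7 and 0 on the list of glycolysis and hypoxia, and 7 and 1 on the cell cycle list. The MHC class II list and the B and plasma cell list each held 5 lower genes in the first set and 0 in the second. Of the antiviral genes, 0 rose in the first set and 7 in the second. The T cell, NK cell and granule lists held calls in both sets, with 11 and 13 lower T cell genes, 8 and 10 lower NK genes and 7 and 9 lower granule genes. Of the collagens and matrix genes 6 and 5 rose, and of the fibroblast identity genes 2 and 6. These differences between counts were not tested, and no gene of these lists was called in the test of whether its change differed between the sets. The log2 ratio of Cd8a to Cd4 differed from isotype by -2.48 in the first set and by -2.57 in the second. For Cd8a to Foxp3 the differences were -2.32 and -2.73.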

How the data were processed

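Poly(A) RNA-seq libraries (KAPA mRNA HyperPrep, RNeasy RNA) were made from whole frozen tumors. The authors aligned reads with Bowtie 1.2.3 to transcriptomes of the Collaborative Cross founder strains (mm10, GRCm38) and deposited expected counts per gene, summed over haplotypes and not normalized. Of 26811 identifiers, 26629 matched a symbol and 182 did not, and 15.2% of values were not whole. Counts were rounded. The filter of edgeR 4.0.16 in R 4.3.3 (filterByExpr over the 5 groups, minimum count 10, total 15) left 16932 genes, and these were scaled by TMM and fitted with all 42 tumors in 1 quasi-likelihood model, with Benjamini-Hochberg adjustment over all genes and a threshold of 0.05. Tables and ratios were made in Python 3.11.15 with numpy 2.4.6 and pandas 2.3.3. Within the 2 groups, the 65 pairs of tumors differed by 8.96 to 102 in chi-square per degree of freedom, so none was counted as a copy.

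Named genes were, in each direction, the 12 with the largest fold change among called genes with a mean of at least 2 CPM, the next 8 by p, up to 4 called members of each list (or up to 2 abundant ones where few were called), and Il2rb, Pdcd1 and Cd274. Genes outside this rule that are printed (Il2rg, Il2ra, Klrk1, Klra13-ps, Klre1, Clec1a, Clec12a, Gzmb, Prf1, Cd8a, Cd4, Foxp3, Csf1r, Folr2, Mmp2, Pdgfrb, Col1a1, Col1a2 and the genes of the closing section) were chosen after their values were seen. Icos, Cd28 and Ctla4 were likewise chosen after their values were seen. Values of Jak1, Stat5b, Gimap4, Gimap6, Tnf, Tnfsf10 and Gbp2 are also printed, and these genes were not followed through the alternatives below. The groups compared, the gene lists and the division into 2 sets were chosen with earlier results of these data known. On simulated data of 16723 genes, the fit recovered 93 of 100 genes changed 2-fold and 99 of 100 changed 4-fold and called 8 unchanged genes. The simulated tumors were drawn independently with the spread estimated by the fit. They held no sets and no deviating tumor, and no gene of low expression was changed. These rates therefore do not carry over to the measured tumors. Alternatives were RLE scaling, library size only, 2 other filters, only the 16 tumors in the fit, DESeq2 1.42.0, a replicate block, the set as a term, each set alone, no rRNA genes and each tumor left out in turn. Same-numbered tumors of the 2 groups did not deviate together, and the main fit has no block. That check covered replicates 1 to 5. Of these, replicates 3 to 5 are in the second set for isotype and in the first for aPD1 + aIL2RB. The check therefore cannot decide on structure along the replicate numbers. The Bowtie version and builds are from the submitters' processing notes.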

Additional observations from a re-analysis of the deposited data

Results flagged for a closer look

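Among 154 genes examined in the 5 isotype tumors, 8 had 1 tumor whose gap to the nearest of the others was large for the range of the group (gap over range above 0.71, Dixon's limit for 5 samples). Chance gives this in about 1 in 20 groups. The ratio was 0.756 for Cdh1, where isotype replicate 3 was highest at 7.51 CPM against 5.84 to 6.25 CPM, and 0.754 for Dpt, where replicate 2 was at 14.7 CPM against 4.05 to 6.66 CPM. For Epha7 it was 0.734, with replicate 1 at 82.8 CPM against 39.6 to 51.1 CPM, and for Eya1 it was 0.842, with replicate 1 at 4.34 CPM against 2.38 to 2.69 CPM. For Hlf it was 0.764, with replicate 4 lowest at 0.506 CPM against 1.12 to 1.31 CPM, and for Pcna it was 0.74, with replicate 4 highest at 236.5 CPM against 202.5 to 211 CPM. Replicate 2 was highest for Retnla (ratio 0.794, 4.84 against 0.234 to 1.18 CPM) and for Spn (ratio 0.75, 45.5 against 27.4 to 31.9 CPM).

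In 4 genes the change against isotype differed between the first and the second set of tumors by edgeR's test of the difference (adjusted p = 0.0414 for each). Cilp, a cartilage matrix gene, changed by -0.57 in the first set and by 1.88 in the second, a difference of 2.45. H19, an imprinted noncoding RNA gene, changed by 0.49 and by 2.91, a difference of 2.42. Pmvk, a gene of the mevalonate pathway, changed by -0.62 and by 0.06, a difference of 0.676. Ptprm, a receptor phosphatase gene, changed by 0.92 and by 0.04, a difference of -0.881.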

How the results depend on the processing

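Main counts were 287 higher and 255 lower genes. Higher genes numbered 170 with library size only, 167 with a total of at least 5 counts as the only filter and 188 with only the 16 tumors in the fit. Fits to the tumors of 1 set alone, other than the fit of both sets that gave 666 and 208 calls, had 188 higher genes in the first set and 146 higher and 131 lower in the second. Leaving out 1 tumor gave 100 to 506 higher and 126 to 454 lower genes. DESeq2 gave 413 and 325. With the replicate block, which pairs tumors by number, 1050 genes were higher and 1185 lower, and 494 of the 542 calls were shared. Same-numbered tumors had correlations of -0.11 to 0.19 and none matched its own number best. Genes whose change differed between the sets numbered 0 with library size only (1495 at an unadjusted p below 0.05 in edgeR) and 0 with only the 16 tumors (1779), and 0 to 41 without 1 isotype tumor. DESeq2 was not run for that test. Cd274 turned to -0.21 in the first set and ran from -0.15 (without aPD1 + aIL2RB replicate 9) to 0.17 (without isotype replicate 2) when 1 tumor was left out. In the first set the ratio of Cd8a to Foxp3 differed by -2.32. The other named genes that were called kept their direction in every alternative that tested them (8, Ncr1 and Klra7 among them, did not pass the filter with a minimum count of 50, and Klra7 was not tested with only the 16 tumors). Of their 91 calls, 44 were lost with the first set only, 38 with the second set only, 12 with only the 16 tumors, 10 with a total of at least 5 counts as the only filter and 30 without isotype replicate 2. E2f8, Msh6 and Atg9b were among those lost in the first set (adjusted p = 0.214, 0.13 and 0.0509) and Lpl and Cdh1 among those lost in the second (0.241 and 0.181). Over all 542 calls, 312 (57.6%) were shared with the fit of only the 16 tumors. The shares were 177 (32.7%) with the first set only, 166 (30.6%) with the second set only and 215 (39.7%) without isotype replicate 4. The ratios were added after the data were seen. Depth limits genes with few counts, such as Ncr1, and with 5 isotype tumors 1 of them decides many calls. The causes of these changes were not tested.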

Other observations

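Clock genes, a list written after the values were seen, held 5 higher and 0 lower genes of 16 tested. Over all genes tested, 1.7% were higher and 1.51% lower. The list had a median log2 fold change of 0.24, beside 0.011 over all genes, and 13 of the 16 were positive. Dbp, an output gene of the clock, was at 5.76, 5.02, 4.89, 2.66 and 1.77 CPM in isotype tumors and at 4.93, 9.495 and 13.6 CPM (lowest, median, highest) in aPD1 + aIL2RB tumors (log2 fold change 1.25 ± 0.28 SE, adjusted p = 0.0071). Nr1d1 and Nr1d2, the genes of the REV-ERB repressors, rose by 0.53 and 0.40 (adjusted p = 0.00651 and 0.00429), and these calls and that of Dbp were made in every fit without 1 tumor. Per3 and Tef rose by 0.73 and 0.41, and each lost its call in at least 1 such fit. The core activators Arntl and Clock had log2 fold changes of 0.09 and 0.01 and were not called. The labels give no time of day for the collection of tumors.

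Basement membrane genes, again listed after the values were seen, held 7 higher and 0 lower genes of 18 tested. Their median was 0.25, and the shares over all genes are the 1.7% and 1.51% given above. Col4a1, a chain of type IV collagen, rose by 0.32 ± 0.07 (SE, adjusted p = 0.00614) and kept its call without any one tumor. Col4a2, Col4a5, Lama2, Lama4, Nid2 and Hspg2 were the others, and each lost its call in at least 1 such fit. Among myeloid genes picked because they fell, Ctsg, which encodes the neutrophil and monocyte protease cathepsin G, had 97 counts over the isotype tumors and 0 over the aPD1 + aIL2RB tumors, at least 67.3-fold lower against a floor of 3 counts over the group (adjusted p = 0.000177). The isotype tumors ran from 0.0913 to 2.11 CPM, and without the highest, replicate 4, the bound was 43.6-fold. Siglece, an inhibitory receptor gene of myeloid cells, fell by 0.87 (adjusted p = 0.00437). Both calls were made in every fit without 1 tumor. Mmp12, which encodes macrophage elastase, fell by 1.38 and Clec12a by 1.00, and each lost its call in at least 1 such fit.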
